A study of Mus musculus with 24 samples.

Results

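The 9 genes followed here carry out the presentation of peptides on major histocompatibility complex (MHC) class I: the heavy chains H2-K1, H2-D1 and H2-T23, the light chain B2m, the peptide transporter subunits Tap1 and Tap2, the chaperone Tapbp, the trimming peptidase Erap1 and the transcriptional activator Nlrc5. They were chosen by name, with earlier results of these data known. All 9 were found among the 21965 genes of the count table and among the 17167 with a summed count of at least 10 that were tested. After contusive spinal cord injury (SCI), 8 of the 9 rose in oligodendrocyte (OL) ribosome-bound RNA on dpi 2 (days post-injury) and 7 on dpi 10 and on dpi 42. Of all tested genes, 18.4%, 9.62% and 16.2% rose. In RNA of the whole cord tissue 8, 8 and 7 members rose. With all libraries used, 0 members passed the study's filter against transcripts of other cells at any time. In OL, H2-T23 rose 10.1-fold on dpi 2, H2-D1 4.00-fold and B2m 3.61-fold, whereas Erap1 did not pass the test in OL at any time with all libraries used.

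All mice carried a tamoxifen-inducible Cre and the rpl22HA allele, were female by label and received tamoxifen, so that cells with an active Cre carried a hemagglutinin (HA) tag on the ribosomal protein RPL22. The Cre driver is also active in Schwann cells, so the tag marks OLs but is not restricted to them. The labels give an age of 10 to 12 weeks at injury, which the methods of the study state differently, and naive mice had no injury. Per the study, naive and dpi 42 cords were collected on the same day, at the same age and time since tamoxifen. For dpi 2 and dpi 10 against naive, age and time since tamoxifen cannot be told apart from injury. The 4 conditions were naive (no SCI) and 2, 10 or 42 days after a 50 kdyn impact at the T9 level. In each condition, lesion-site cord from 2 mice was pooled, 3 pools per condition, and every pool gave an HA immunoprecipitate, called OL, and a sample of the same lysate before precipitation, called total RNA. This made 24 libraries in 8 groups of 3, each with 25840127 to 32987841 counts. Values below are TMM-scaled CPM (counts relative to the scaled library total), given for pools 1, 2 and 3 of a condition in that order.

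Some libraries stood apart. OL naive library 3 held 636 CPM of 5 Schwann cell markers against 1.89 and 1.57 CPM in the other naive OL libraries. It also held 4488 CPM of 5 astrocyte markers against 983 and 791, and fewer counts of 8 OL markers. Both sums lay within the range of OL libraries after SCI, 226 to 1547 CPM (Schwann) and 817 to 10867 CPM (astrocyte). Total RNA of the same pool held 175 CPM of the Schwann cell markers, against 3.44 and 2.58 in the other naive pools. Both libraries of dpi 2 pool 2 held Y-linked transcripts, 2414 and 2604 counts against at most 13 in any other library, although the labels give female mice. The labels of the libraries of dpi 42 pool 1 conflict on which is OL and which is total RNA; they were grouped by their description field. Main results that rest on OL naive library 3, dpi 2 pool 2 or dpi 42 pool 1 are given with and without it. Fits without OL naive library 3 kept the total RNA of its pool. They set OL after SCI against naive OL libraries with 1.89 and 1.57 CPM of Schwann cell markers.

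Class I molecules carry peptides from the cytosol to the cell surface, where CD8 T cells and natural killer cells read them. Proteasomes cut proteins into peptides, TAP1 and TAP2 pump these into the endoplasmic reticulum, tapasin (Tapbp) holds empty class I molecules next to the transporter, and ERAP1 trims the peptides to fit. Interferons induce most of the pathway through factors such as IRF1, and NLRC5 acts on a promoter module that class I genes share. Neural cells of the healthy central nervous system are known for low class I expression.

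Of the 9 genes, 7 had an entry in the RefSeq promoter table (GRCm38.p6), and 3 of these promoters are shown because they represent the light chain, a heavy chain and the transporter. Each run ends at the base before the annotated gene start, and capitals mark matches, on either strand, to the letters of the motifs searched: the interferon-stimulated response element (ISRE) core (GAAA, any 2 bases, GAAA), the kappa-B element (GGG, any 5 bases, CC), the Y box CCAAT and the cyclic AMP response element (CRE) core TGACG. Overlapping matches merge into one run of capitals.
B2m (chr2:122147437-122147685, + strand): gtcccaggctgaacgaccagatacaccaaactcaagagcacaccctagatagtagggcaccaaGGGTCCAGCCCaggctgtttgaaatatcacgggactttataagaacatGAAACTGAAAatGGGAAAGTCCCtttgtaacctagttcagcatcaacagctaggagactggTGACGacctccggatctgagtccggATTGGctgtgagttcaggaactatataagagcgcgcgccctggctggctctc
H2-K1 (chr17:34000348-34000597, - strand): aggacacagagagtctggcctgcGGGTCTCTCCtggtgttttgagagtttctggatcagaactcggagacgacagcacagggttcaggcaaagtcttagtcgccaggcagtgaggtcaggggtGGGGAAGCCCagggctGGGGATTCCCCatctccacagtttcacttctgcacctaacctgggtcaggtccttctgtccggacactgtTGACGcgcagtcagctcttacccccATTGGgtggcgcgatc
Tap1 (chr17:34187306-34187552, + strand): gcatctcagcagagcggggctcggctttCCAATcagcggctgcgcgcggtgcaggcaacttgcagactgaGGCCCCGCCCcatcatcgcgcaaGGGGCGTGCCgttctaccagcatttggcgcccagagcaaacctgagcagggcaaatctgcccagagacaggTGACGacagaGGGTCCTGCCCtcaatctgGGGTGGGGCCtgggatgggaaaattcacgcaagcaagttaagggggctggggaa

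The 250 bases before the RefSeq start of B2m held 1 ISRE core, 4 kappa-B matches, 1 Y box and 1 CRE core. The H2-K1 window held 4 kappa-B matches and that of H2-D1 3, and both held a Y box and a CRE core. The Tap1 window held 5 kappa-B matches with a Y box and a CRE core, H2-T23 an ISRE core and a Y box, Tapbp only 2 Y boxes, and Erap1 none of these letters. The gamma-activated site (TTC, any 3 bases, GAA) was searched as well and had no match in the 7 windows. Among all 32851 RefSeq promoters, 2.98% held the ISRE core, 45.8% a kappa-B match, 33.8% a Y box, 17.8% the CRE core and 7.02% the gamma-activated site, so that most of these letters are common. A match describes the letters and not a bound site. The search took exact letters only, so a window without a match may still hold a variant of the element. Overlapping matches were counted separately, so a kappa-B count can exceed the number of separate runs.

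The genes lie in the H2 complex on chromosome 17 (Tapbp at 33915899-33929292, H2-K1 at 33996017-34000347, Tap1 at 34187553-34197225, Tap2 at 34203527-34216321, H2-D1 at 35262730-35267499 and H2-T23 at 36029773-36032855, GRCm38) or elsewhere (B2m, chromosome 2, 122147686-122153083; Nlrc5, chromosome 8, 94434356-94527272; Erap1, chromosome 13, 74639568-74693201). All counts are sums over exons. Of the 75-base words in their exons, 5.91% in H2-T23, 5.4% in H2-D1, 3.1% in H2-K1 and 1.1% in Tapbp recur in another gene, mostly related heavy chains, so a small share of reads may be uncertain between paralogs.

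Per kilobase of exon, B2m was the most abundant of the 9 in naive OL libraries, at 74.1 ± 36.8 CPM per kb (SD, n = 3). H2-D1 followed at 21.5 ± 4.43, Tapbp at 15.9 ± 0.640 and H2-K1 at 14.5 ± 7.42, and the H2-K1 libraries overlapped those of both, whereas every H2-D1 library lay above every Tapbp library. Erap1 (3.04 ± 1.14) and Tap2 (2.27 ± 2.28) lay lower and overlapped each other, as did H2-T23 (0.644 ± 0.429) and Tap1 (0.422 ± 0.525), and Nlrc5 had the lowest mean, 0.143 ± 0.00720. In total RNA of dpi 10, the condition with the highest mean of every member within total RNA, B2m was again the highest at 1089 ± 109 CPM per kb and Nlrc5 the lowest at 0.855 ± 0.0789. Between them lay H2-D1 (196 ± 28.7), H2-K1 (79.8 ± 10.4), Tapbp (40.3 ± 2.21), H2-T23 (18.2 ± 2.53), Tap2 (7.99 ± 0.572), Erap1 (3.94 ± 0.478) and Tap1 (3.90 ± 0.505), of which the last 2 did not differ beyond their spread.

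The first comparison asked how OL ribosome-bound RNA changed after SCI. H2-D1, a classical heavy chain, stood at 51.6, 46.5 and 68.3 CPM in the naive OL libraries, then at 237, 219 and 209 (dpi 2), at 324, 433 and 284 (dpi 10) and at 305, 296 and 284 (dpi 42). H2-K1, the other classical heavy chain, stood at 29.8, 30.2 and 67.8 CPM in naive, 116, 131 and 158 (dpi 2), 110, 144 and 95.1 (dpi 10) and 140, 121 and 95.4 (dpi 42). For both genes every library after SCI lay above every naive library, and naive library 3 was the highest of its group. The Log2FC of H2-D1 was 2.00 ± 0.16 (SE), 2.65 ± 0.16 and 2.41 ± 0.16 (adjusted p = 3.73e-09, 4.19e-10 and 1.81e-09, edgeR quasi-likelihood test), and that of H2-K1 1.66 ± 0.24, 1.45 ± 0.24 and 1.48 ± 0.24 (adjusted p = 1.16e-05, 2.09e-04 and 7.14e-05).

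H2-T23 encodes a non-classical heavy chain that natural killer cell receptors recognise. Its OL level was 0.714, 1.69 and 3.17 CPM in naive, 20.1, 8.39 and 28.3 (dpi 2), 17.8, 30.2 and 21.5 (dpi 10) and 9.72, 13.3 and 12.5 (dpi 42). It had the highest Log2FC of the 9 in OL on each day, at 3.33 ± 0.42, 3.63 ± 0.42 and 2.66 ± 0.41 (adjusted p = 1.94e-06, 3.12e-06 and 4.41e-05), from a naive level of as few as 17 counts. B2m, the light chain that every class I molecule needs, was at 47.6, 43.3 and 100.2 CPM in naive, 219, 190 and 280 (dpi 2), 341, 412 and 344 (dpi 10) and 304, 331 and 263 (dpi 42). Its Log2FC was 1.85 ± 0.22, 2.52 ± 0.22 and 2.23 ± 0.22 (adjusted p = 1.02e-06, 1.07e-07 and 3.76e-07), and no library after SCI overlapped the naive ones. Without OL naive library 3, the highest naive library for each of these genes, the OL Log2FC on dpi 2, 10 and 42 was 3.91, 4.26 and 3.24 for H2-T23, 2.27, 3.00 and 2.66 for B2m, 2.10, 1.95 and 1.93 for H2-K1 and 2.11, 2.82 and 2.53 for H2-D1, all past the test.

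The transporter subunits were scarcer and more scattered. Tap1 was at 0.504, 0.804 and 5.62 CPM in the naive OL libraries, 9.98, 4.21 and 10.1 (dpi 2), 10.4, 10.9 and 8.75 (dpi 10) and 7.31, 4.26 and 2.74 (dpi 42). Tap2 was at 2.31, 4.99 and 18.4 CPM in naive, 19.8, 23.9 and 31.9 (dpi 2), 16.2, 18.9 and 15.1 (dpi 10) and 27.5, 29.0 and 10.1 (dpi 42). In both cases naive library 3 overlapped libraries after SCI: for Tap1 on dpi 2 and dpi 42, and for Tap2 on dpi 10 and dpi 42.

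Tap1 rose on dpi 2 (Log2FC 1.80 ± 0.57, adjusted p = 0.0166) and dpi 10 (2.10 ± 0.58, adjusted p = 0.0137), and its dpi 42 value was 1.04 ± 0.57 (adjusted p = 0.177). Tap2 rose on dpi 2 (1.55 ± 0.46, adjusted p = 0.00993) and dpi 42 (1.37 ± 0.45, adjusted p = 0.0245), with 0.96 ± 0.45 on dpi 10 (adjusted p = 0.156). Without OL naive library 3 both genes passed at all 3 times, Tap1 with 3.56, 3.93 and 2.79 and Tap2 with 2.72, 2.20 and 2.54. Conversely, Tap1 on dpi 2 and dpi 10 no longer passed when OL naive library 1 (adjusted p = 0.0801 and 0.0571) or OL naive library 2 (0.0907 and 0.0682) was left out, and on dpi 2 also without OL library 1 (0.0572) or 3 (0.0531) of that day. The Tap2 calls were lost without OL naive library 2 on dpi 2 (0.0644), and on dpi 42 without OL naive library 1 (0.114) or 2 (0.132) or OL dpi 42 library 1 (0.101) or 2 (0.111).

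Tapbp, which loads peptide onto class I molecules, had close values within each OL group. Its OL level was 55.3, 59.9 and 57.6 CPM in naive, 87.9, 90.7 and 101 (dpi 2), 115, 123 and 104 (dpi 10) and 110, 95 and 91.4 (dpi 42). Every library after SCI lay above the naive ones, while the dpi 42 libraries overlapped those of dpi 2 and dpi 10, and its Log2FC was 0.70 ± 0.11, 0.99 ± 0.11 and 0.78 ± 0.11 (adjusted p = 2.98e-05, 1.87e-06 and 1.56e-05), below 1 in each case. Nlrc5, the activator of class I genes, rose from 1.22, 1.27 and 1.15 CPM in naive to 9.49, 4.33 and 4.36 (dpi 2) and 5.51, 7.04 and 10.5 (dpi 10), and lay at 3.18, 3.58 and 3.25 (dpi 42). Its Log2FC was 2.32 ± 0.41, 2.66 ± 0.42 and 1.46 ± 0.41 (adjusted p = 1.24e-04, 1.16e-04 and 0.00833). For Tapbp and Nlrc5 naive library 3 was not the highest of its group.

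Erap1, the aminopeptidase that trims peptides, differed from the rest. It was at 16.1, 18.8 and 31.6 CPM in naive OL, 20.2, 16.6 and 25.2 (dpi 2), 18.9, 21.4 and 22 (dpi 10) and 12.8, 16.4 and 17.3 (dpi 42). The libraries overlapped at each time, with a Log2FC of -0.10 ± 0.20, -0.09 ± 0.20 and -0.52 ± 0.20 (adjusted p = 0.765, 0.849 and 0.0541). The 95% intervals, -0.52 to 0.32, -0.51 to 0.33 and -0.93 to -0.10, all lie between -1 and 1. On dpi 42 Erap1 passed as lower in 12 of 44 alternatives, for example without OL naive library 1 (-0.75, adjusted p = 0.00990), and was at -0.22 without OL naive library 3 (adjusted p = 0.369).

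**Figure D1:**
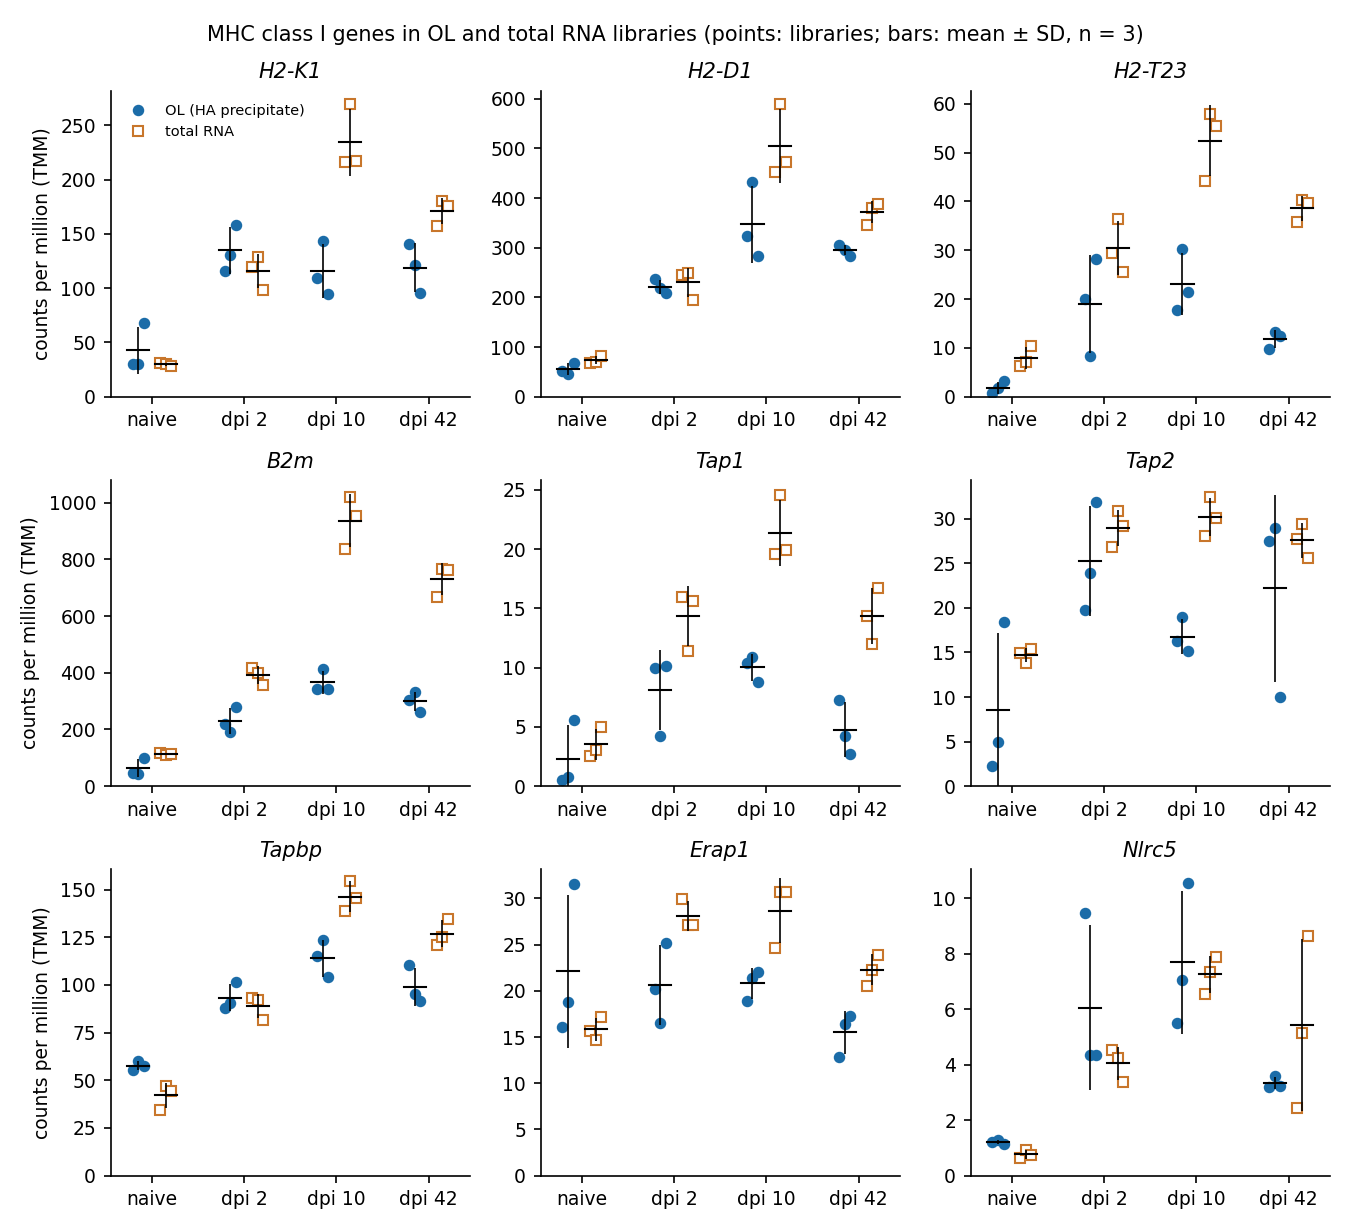
TMM-scaled CPM of each of the 9 genes (linear axis) in OL and total RNA of naive and dpi 2, 10 and 42. Each point is 1 library, and bars are mean ± SD. B2m and H2-D1 sit above all naive libraries after SCI in both kinds of RNA, and the Erap1 points of OL overlap at every time.

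The members' counts can be read beside those of all genes. Because the members were chosen with earlier results of these data known, the comparison is a description and no test of the set. In OL, 8, 7 and 7 of 9 members were higher on dpi 2, 10 and 42 and 0 were lower, where 18.4%, 9.62% and 16.2% of all tested genes were higher. Lower were 20%, 8.59% and 16.9% of all genes. Past a Log2FC of 1, 7, 6 and 6 members were higher against 10.2%, 6.82% and 8.54% of all genes, and 0 were lower past -1, against 6.85%, 1.26% and 4.08%. Every library after SCI lay above every naive library for 7, 7 and 6 members, against 18.3%, 15.8% and 17.2% of all genes. The members' median Log2FC was 1.80, 2.10 and 1.46, beside 0.00 over all tested genes at each time. With OL naive library 3 left out the counts were 8, 8 and 8; without the conflicting pool of dpi 42, 6 were higher on dpi 42; and without dpi 2 pool 2, 8 were higher on dpi 2.

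The same comparison in total RNA asked how the whole tissue changed, and all 9 genes had their highest mean on dpi 10. B2m was at 118, 109 and 113 CPM in naive, 418, 401 and 356 (dpi 2), 835, 1020 and 954 (dpi 10) and 666, 765 and 763 (dpi 42). H2-K1 went from 31.1, 30.3 and 28.1 CPM to 119, 129 and 98.7, then 216, 270 and 217, then 157, 180 and 176. Both were highest on dpi 10, with a Log2FC of 3.05 ± 0.23 for B2m and 2.97 ± 0.25 for H2-K1 (adjusted p = 3.54e-09 and 1.99e-08).

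Among the other heavy chains, H2-D1 was at 68.5, 70.6 and 82.9 CPM in naive total RNA, 246, 248 and 195 (dpi 2), 453, 589 and 472 (dpi 10) and 346, 379 and 389 (dpi 42). H2-T23 was at 6.23, 7.09 and 10.4 CPM in naive, 29.4, 36.4 and 25.5 (dpi 2), 44.2, 57.8 and 55.4 (dpi 10) and 35.7, 40.3 and 39.8 (dpi 42). Their Log2FC on dpi 2, 10 and 42 was 1.64, 2.77 and 2.33 for H2-D1 and 1.95, 2.73 and 2.29 for H2-T23, each with an SE of at most 0.38 and all past the test.

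Tap1 in total RNA moved from 2.52, 3.06 and 4.98 CPM in naive to 15.9, 11.4 and 15.6 (dpi 2), 19.6, 24.6 and 20 (dpi 10) and 14.3, 12.0 and 16.7 (dpi 42). Tap2 moved from 14.9, 13.9 and 15.3 CPM to 26.8, 30.9 and 29.1, then 28.1, 32.4 and 30.1, then 27.8, 29.4 and 25.6. Every Tap2 library after SCI lay above the naive ones, and the 3 times overlapped one another, yet its Log2FC of 0.98 ± 0.45, 1.04 ± 0.45 and 0.91 ± 0.44 did not pass (adjusted p = 0.0927, 0.0824 and 0.159), in a fit where OL naive library 3 shares in the estimate of spread. Without that OL library the values were 1.12, 1.16 and 1.00 and passed (adjusted p = 0.00261, 0.00262 and 0.0112).

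Tapbp rose from 34.6, 47.3 and 44.3 CPM to 93.1, 92.0 and 81.7 (dpi 2), 138, 154 and 146 (dpi 10) and 121, 125 and 135 (dpi 42), and Nlrc5 from 0.623, 0.935 and 0.761 CPM to 4.53, 4.25 and 3.39, then 6.56, 7.35 and 7.89, then 2.46, 5.15 and 8.65. Erap1 rose in total RNA from 15.6, 14.7 and 17.2 CPM to 30.0, 27.2 and 27.1 (dpi 2) and 24.6, 30.7 and 30.7 (dpi 10) (Log2FC 0.83 ± 0.20 and 0.86 ± 0.20, adjusted p = 0.00246 and 0.00224), and was at 20.6, 22.3 and 23.9 (dpi 42) (0.49 ± 0.20, adjusted p = 0.0866). In total RNA 8, 8 and 7 members were higher, where 16.4%, 13.9% and 10.4% of all genes were; 7 at each time were past a Log2FC of 1, against 10%, 9.2% and 6.66%. No member was lower in total RNA, where 20.8%, 18.2% and 12.1% of all genes were, and 6.33%, 3.07% and 0.798% past -1. For all 9 members every library after SCI lay above every naive library at each time, against 24.7%, 24.5% and 20.2% of all genes. The total RNA is bulk tissue, in which fewer or more cells of a type and less or more RNA per cell cannot be told apart.

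**Figure D2:**
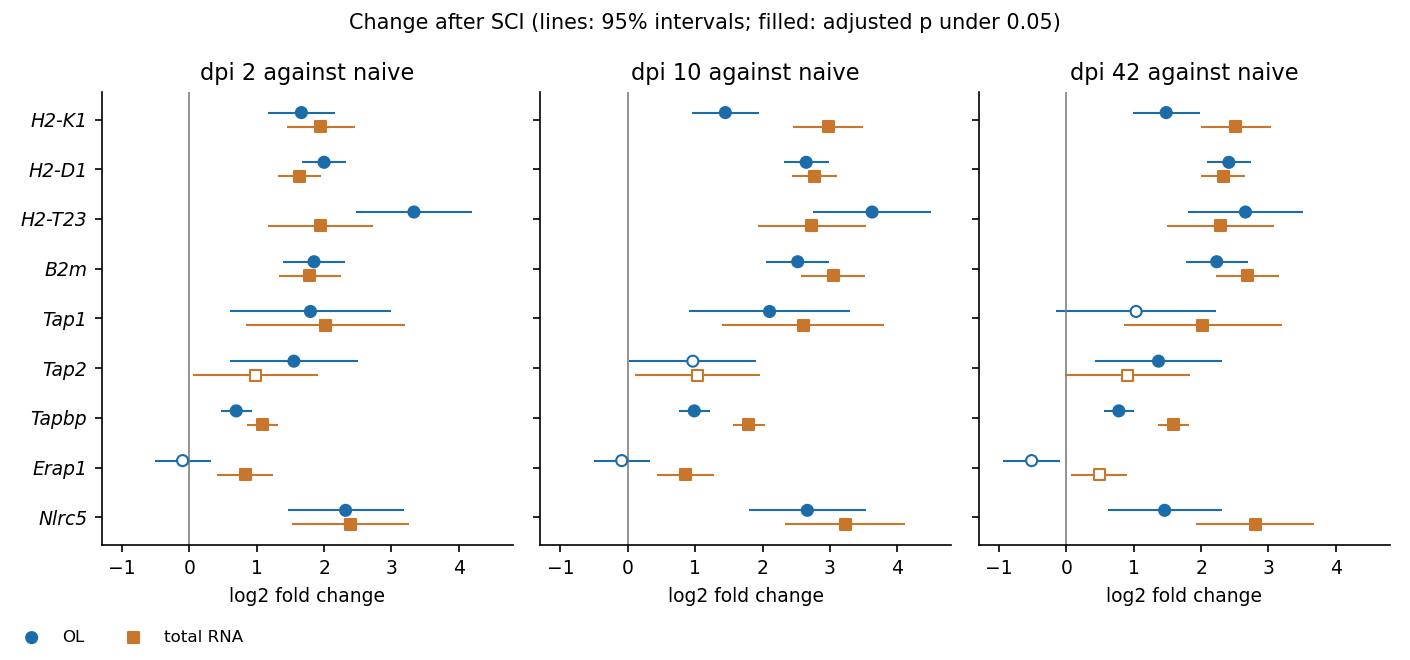
Log2FC of each gene against naive on dpi 2, 10 and 42, in OL (circles) and total RNA (squares), with 95% intervals; filled symbols passed at adjusted p under 0.05. H2-T23 has the highest OL value at each time, Erap1 lies at or below 0 in OL, and on dpi 10 H2-K1 stands at 1.45 in OL and 2.97 in total RNA.

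The next comparison, OL enrichment, set OL against total RNA of the same condition. In naive cord B2m (-0.83 ± 0.21, adjusted p = 0.00227), H2-D1 (-0.42 ± 0.15, adjusted p = 0.0246) and H2-T23 (-2.07 ± 0.41, adjusted p = 1.61e-04) were lower in OL, and Tapbp (0.45 ± 0.11, adjusted p = 0.00122) and Erap1 (0.48 ± 0.20, adjusted p = 0.0465) were higher. This is 3 of 9 lower and 2 of 9 higher, against 30.5% and 24.9% of all genes, so these shares are near those of all genes. Past 1 in size, 0 members were higher and 1 (H2-T23) lower, against 12.4% and 23.7% of all genes. H2-K1 (0.51 ± 0.24), Nlrc5 (0.65 ± 0.42), Tap1 (-0.60 ± 0.57) and Tap2 (-0.77 ± 0.45) did not pass. H2-K1 passed as higher in 15 of 44 alternatives, with 0.87 without OL naive library 1 (adjusted p = 0.00391) and 0.17 without OL naive library 3 (adjusted p = 0.420).

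The naive values of the transporter depended on OL naive library 3. Without it Tap1 was -2.26 (adjusted p = 2.53e-04) and Tap2 -1.85 (adjusted p = 8.23e-05), so that 5 members were lower, and Erap1 at 0.30 (adjusted p = 0.170) no longer passed. OL and total RNA of a pool come from 1 lysate, and with a block for the pool Tap1 was -1.24 (adjusted p = 0.0359), Tap2 -1.25 (adjusted p = 0.0272) and Erap1 0.42 (adjusted p = 0.0504). The B2m call was lost without OL naive library 1 (-0.50, adjusted p = 0.0707) or 2 (-0.46, adjusted p = 0.0778). That of H2-D1 was lost in 17 of 44 alternative fits, 12 of which left out a single library, and that of Erap1 in 24 of 44, 12 of them by a single library. With library sizes alone in place of TMM scaling, Tapbp was -0.058 and Erap1 -0.012 in naive cord, so that both directions turned.

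After SCI no member was higher in OL than in total RNA at any time by the test, against 24.8%, 25.2% and 24.9% of all genes. On dpi 2 only B2m was lower (-0.77 ± 0.21, adjusted p = 0.00441; 28.8% of all genes), and without dpi 2 pool 2 it did not pass (-0.63, adjusted p = 0.0569). On dpi 10 5 members were lower (28.8% of all genes): B2m (-1.36 ± 0.22), H2-T23 (-1.18 ± 0.36), H2-K1 (-1.01 ± 0.24), H2-D1 (-0.54 ± 0.15) and Tapbp (-0.36 ± 0.11). On dpi 42 5 members were lower (28.9% of all genes): H2-T23 (-1.70 ± 0.37), Tap1 (-1.59 ± 0.56), B2m (-1.29 ± 0.21), Erap1 (-0.52 ± 0.20) and Tapbp (-0.36 ± 0.11).

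Past 1 in size, 0 members were higher on dpi 2, 10 and 42, against 9.69%, 10.6% and 10.5% of all genes, and 0, 3 and 3 were lower, against 23%, 23.2% and 22.5%. Several of the counts above rose without OL naive library 3, to 3 lower on dpi 2, 8 on dpi 10 and 7 on dpi 42. With the pool block Erap1 passed on dpi 2 (-0.46, adjusted p = 0.0355) and dpi 10 (-0.46, adjusted p = 0.0358), Tap1 on dpi 10 (-1.09, adjusted p = 0.0371) and H2-D1 on dpi 42 (-0.33, adjusted p = 0.00951). Without the conflicting pool of dpi 42, Erap1 was at -0.46 on dpi 42 (adjusted p = 0.131) and the other 4 calls remained. On dpi 10 the call of H2-T23 was lost without OL dpi 10 library 1, and those of H2-D1 and Tapbp without OL dpi 10 library 3. On dpi 42 the call of Tap1 was lost without OL library 2 or 3 or total RNA library 3 of that day. B2m was lower in OL than in total RNA in each of the 4 conditions when all libraries were used, and Nlrc5 passed in none.

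**Figure D3:**
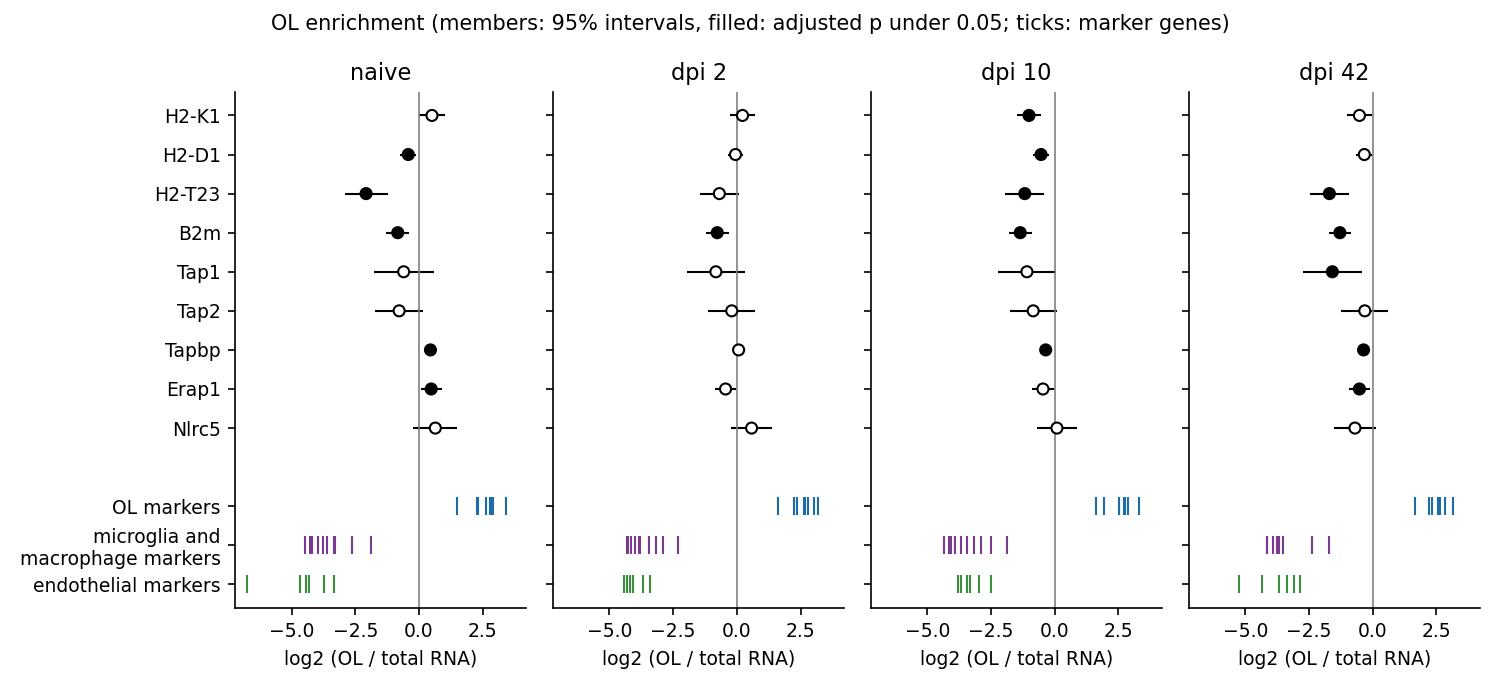
OL enrichment (log2 of OL over total RNA) of each gene in naive and on dpi 2, 10 and 42, with 95% intervals; filled symbols passed at adjusted p under 0.05. B2m lies below 0 in all 4 conditions, and Tapbp goes from 0.45 in naive (-0.058 with library sizes alone) to -0.36 on dpi 10 and dpi 42.

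Differential OL enrichment tested whether OL enrichment after SCI differed from that in naive cord. It compares the change in OL with the change in total RNA. A rise in total RNA lowers it even where OL stays level. Tapbp was lower on dpi 10 (-0.81 ± 0.15, adjusted p = 0.00210) and dpi 42 (-0.82 ± 0.15, adjusted p = 0.00228), with -0.38 ± 0.15 on dpi 2 (adjusted p = 0.107). H2-K1 was lower on dpi 10 (-1.53 ± 0.33, adjusted p = 0.00674), with -1.04 ± 0.33 on dpi 42 (adjusted p = 0.0589). Erap1 was lower at all 3 times, at -0.93 ± 0.28, -0.95 ± 0.28 and -1.01 ± 0.28 (adjusted p = 0.0320, 0.0438 and 0.0322). No member was higher.

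Thus 1, 3 and 2 of 9 members were lower, against 6.03%, 3.09% and 3.47% of all genes, and 0 were higher, against 8.06%, 4.57% and 4.37%. Past 1 in size, 0, 1 (H2-K1) and 1 (Erap1) were lower, against 2.92%, 1.43% and 1.42% of all genes, and 0 were higher, against 3.35%, 1.48% and 1.56%. B2m (0.06 ± 0.30, -0.53 ± 0.30 and -0.46 ± 0.30) and H2-D1 (0.36 ± 0.21, -0.12 ± 0.21 and 0.09 ± 0.21) did not pass. Their 95% intervals ran from -0.56 to 0.68, -1.15 to 0.10 and -1.08 to 0.17 for B2m and stayed within -0.57 and 0.81 for H2-D1. H2-T23 had 1.39 ± 0.54 on dpi 2 (95% interval 0.26 to 2.51, adjusted p = 0.0970).

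Some of these calls depended on single libraries or pools. In the fit that left out OL naive library 3, H2-T23 (1.82, adjusted p = 0.0237) and Tap2 (1.60, adjusted p = 0.0132) were higher on dpi 2, Tap2 was higher (1.53, adjusted p = 0.0235) on dpi 42, and Erap1 on dpi 10 did not pass (-0.72, adjusted p = 0.0764). Without dpi 2 pool 2, H2-T23 was 1.89 (adjusted p = 0.0205) and Erap1 -0.81 (adjusted p = 0.107) on dpi 2. Without the conflicting pool, Erap1 on dpi 42 was -0.94 (adjusted p = 0.0850). Tapbp was lower on dpi 2 in 14 of 44 alternative fits, among them those without any 1 of the 12 OL libraries (-0.60, adjusted p = 0.0133, without OL naive library 3), and H2-K1 was lower on dpi 42 in 16 of 44 (-0.69, adjusted p = 0.0497, without the same library). Of the 44, the Erap1 call was lost in 8 on dpi 2, 21 on dpi 10 and 10 on dpi 42, among them 3, 12 and 4 that left out a single library. The pool block changed no call here, and the Tapbp calls of dpi 10 and dpi 42 and the H2-K1 call of dpi 10 were lost under none of the 44.

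**Figure D4:**
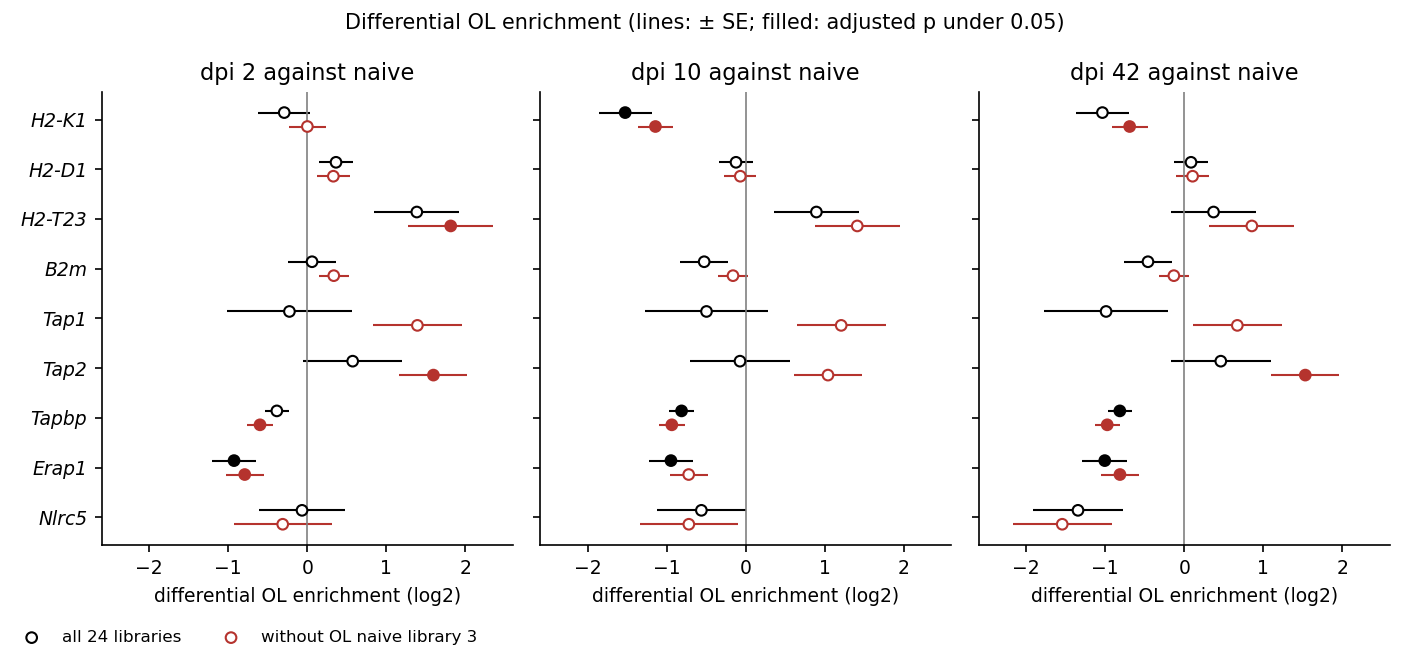
Differential OL enrichment (log2) of each gene on dpi 2, 10 and 42, with all 24 libraries (black) and without OL naive library 3 (red); lines are ± SE and filled symbols passed at adjusted p under 0.05. Tapbp and Erap1 lie below 0 in all panels, and the transporter genes Tap1 and Tap2 shift most between the fits.

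The study selected OL genes by a two-arm filter on these contrasts: an OL change past 1 together either with a differential OL enrichment beyond 1 of equal sign, or with an OL enrichment over 1 both in naive and at that time. The paper reports apparent contamination of OL ribosome-bound RNA after SCI with microglia and macrophage transcripts. Its filter was meant to reduce this and to leave high-confidence OL changes. Of the members with an OL rise past 1 (7, 6 and 6), 0 passed on dpi 2, 10 and 42. Of all genes with such a rise, 20.7% (363 of 1754), 10.2% (119 of 1170) and 13.6% (199 of 1466) passed. Without OL naive library 3, 2 members passed on dpi 2 and 1 on dpi 42; without dpi 2 pool 2, 1 passed on dpi 2.

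The times after SCI were also compared with each other. In OL, B2m (0.67 ± 0.21, adjusted p = 0.0265) and H2-D1 (0.65 ± 0.15, adjusted p = 0.00343) were higher on dpi 10 than on dpi 2, where 11.7% of all genes were, and the B2m call was lost in 8 of 44 alternatives. B2m did not pass without dpi 2 pool 2 (0.55, adjusted p = 0.126), nor without OL library 2 of dpi 2 (0.61, adjusted p = 0.0766) or of dpi 10 (0.64, adjusted p = 0.0614). In total RNA, B2m (1.26 ± 0.21), H2-D1 (1.13 ± 0.15), H2-K1 (1.02 ± 0.24) and Tapbp (0.72 ± 0.11) were higher on dpi 10 than on dpi 2, where 3.31% of all genes were. B2m (0.90 ± 0.21), H2-D1 (0.69 ± 0.15) and Tapbp (0.51 ± 0.11) were also higher on dpi 42 than on dpi 2, where 5.17% of all genes were. From dpi 10 to dpi 42 no member passed in either kind of RNA in the main edgeR fit, where 3.9% of all genes were lower in OL and 0.204% in total RNA. Nlrc5 in OL passed in 6 of 44 alternatives. The largest such differences in OL were those of Nlrc5 (-1.20 ± 0.39, adjusted p = 0.0656), Tap1 (-1.07 ± 0.55) and H2-T23 (-0.97 ± 0.37), for each of which the dpi 42 libraries all lay below those of dpi 10, and in total RNA the same genes were at -0.42, -0.58 and -0.44. Whether OL and total RNA differed in these changes was not tested.

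Relative amounts of partner transcripts were compared per kilobase. B2m per summed heavy chains was 1.96 ± 0.302, 1.92 ± 0.300, 2.37 ± 0.283 and 2.19 ± 0.177 (SD, n = 3) in OL of naive, dpi 2, dpi 10 and dpi 42, and 3.18 ± 0.296, 3.29 ± 0.230, 3.72 ± 0.268 and 3.94 ± 0.0644 in total RNA. The ranges of this ratio in OL and total RNA did not overlap in any condition. H2-K1 per H2-D1 in OL was 0.650 ± 0.195 in naive, 0.539 ± 0.118 on dpi 2, 0.294 ± 0.00316 on dpi 10 and 0.353 ± 0.0546 on dpi 42, while the means in total RNA lay between 0.358 and 0.442, and the ranges overlapped on dpi 2 and dpi 42. Tap1 per Tap2 was 0.158 ± 0.0503, 0.230 ± 0.114, 0.413 ± 0.0246 and 0.158 ± 0.0487 in OL and 0.164 ± 0.0545, 0.345 ± 0.0801, 0.488 ± 0.0330 and 0.363 ± 0.0849 in total RNA, and its ranges overlapped in naive and on dpi 2. No test was run on these ratios.

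Markers of other cells moved beside these results. In OL 18.4%, 9.62% and 16.2% of all tested genes were higher on dpi 2, 10 and 42, and 20%, 8.59% and 16.9% lower. Microglia and macrophages express class I strongly, and their 10 markers summed to 19.8 to 28.1 CPM in naive OL libraries. After SCI the sum was 79.6 to 101 (dpi 2), 240 to 272 (dpi 10) and 146 to 245 CPM (dpi 42). Of the 10 markers 9, 9 and 8 were higher in OL, and 1, 0 and 0 lower. All 10 were lower in OL than in total RNA in each condition, with a median OL enrichment of -3.68, -3.82, -3.56 and -3.73, and a highest one of -1.88, -2.30, -1.87 and -1.72. The 9 class I genes together amounted in OL to 69.9% to 112% of their total RNA level in naive pools, 70.2% to 102% on dpi 2, 46.8% to 54.9% on dpi 10 and 49.5% to 66.2% on dpi 42. For the microglia list this share was at most 10.4%, for the endothelial list 13.1% and for the neuron list 9.63%. For the astrocyte list it was 27.0% to 198% in naive, 14.6% to 125% on dpi 2, 27.8% to 82.0% on dpi 10 and 26.8% to 231% on dpi 42. For the Schwann cell list it was 54.9% to 363%, 268% to 433%, 417% to 522% and 186% to 447%. All 8 OL markers were enriched, with a median of 2.70, 2.66, 2.62 and 2.59.

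The 5 neuron markers were all lower in OL than in total RNA in each condition. T and NK cell markers summed to at most 1.12 CPM in any OL library and 4.75 in any total RNA library, and Cd3d had no count in any OL library. All 6 endothelial markers were lower in OL in each condition, with 5, 4 and 3 of 6 higher in OL after SCI. Schwann cell markers in OL summed to 226 to 688 CPM on dpi 2, 875 to 1547 on dpi 10 and 1207 to 1404 on dpi 42.

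Astrocyte markers in OL summed to 817 to 6585 CPM (dpi 2), 1686 to 5293 (dpi 10) and 1655 to 10867 (dpi 42). Of the 5 markers 0, 0 and 1 were called higher, and 1, 0 and 0 lower. In 4 of 4 OL groups the library with the highest astrocyte sum was also the highest in the summed class I genes, as it was for H2-K1 and Tap1, for B2m, H2-D1, H2-T23, Tap2 and Tapbp in 3 of 4, and for Nlrc5 in 0 of 4. For the Schwann, microglia and endothelial lists this held in 1 of 4 groups for the summed class I genes. The libraries of the astrocyte match included OL naive library 3 and, on dpi 42, the OL library of the conflicting pool. On dpi 42 the class I sum was 920 CPM in that library and 909 CPM in OL library 2. In total RNA the astrocyte match held for the summed class I genes in 1 of 4 groups, and for single members in 0 (Nlrc5, Erap1) to 4 (H2-K1). The pattern was noticed after the values were seen, and the part of these cells in the class I results was not tested.

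**Figure D5:**
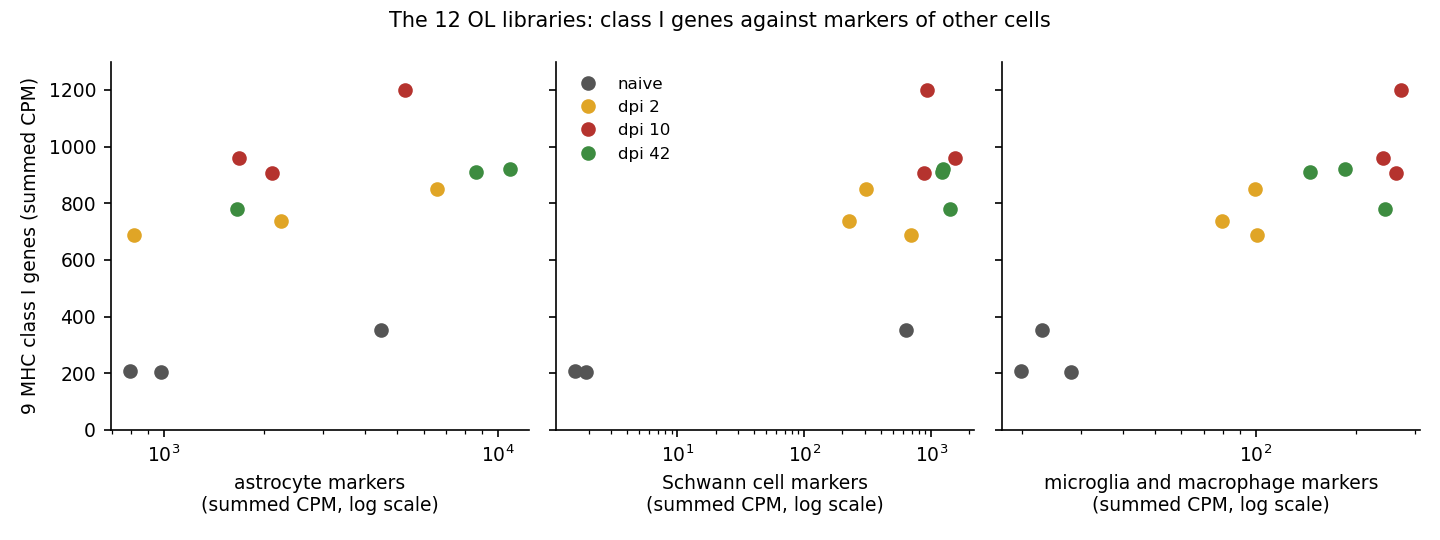
Summed CPM of the 9 class I genes (linear axis) against that of astrocyte, Schwann cell, or microglia and macrophage markers (log axis). Points are OL libraries, colored by condition. OL naive library 3 stands out within naive at 636 CPM of Schwann cell markers and 4488 CPM of astrocyte markers. The microglia and macrophage sum rises after SCI.

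Other genes of the pathway were followed as lists. Of all tested genes, 18.4%, 9.62% and 16.2% were higher in OL on dpi 2, 10 and 42, and 20%, 8.59% and 16.9% lower. In total RNA 16.4%, 13.9% and 10.4% were higher and 20.8%, 18.2% and 12.1% lower. The immunoproteasome supplies peptides with class I anchors, and its 5 genes were higher in OL in 5, 3 and 5 cases and in total RNA in 4, 4 and 4, with 0 lower. Psmb8, a catalytic subunit, had an OL Log2FC of 3.26 ± 0.54, 2.94 ± 0.53 and 3.06 ± 0.53, and Psmb9, another catalytic subunit, 2.21 ± 0.77, 3.13 ± 0.78 and 3.13 ± 0.78 from at most 25 counts in naive OL. Psmb10 rose in OL by 1.80 ± 0.31 on dpi 2 and 1.53 ± 0.30 on dpi 42 and was at 0.83 ± 0.30 on dpi 10 (adjusted p = 0.0623), while in total RNA it did not pass (0.68, 0.59 and 0.53). The activator subunits Psme1 (1.42, 0.71 and 1.00 in OL, of which the dpi 10 value did not pass) and Psme2 (1.10, 0.54 and 0.90) moved less. The median of the list in OL was 1.80, 0.83 and 1.53. Without OL naive library 3 all 5 were higher in OL and in total RNA at each time, and with only the groups compared in the fit 1 was higher in OL on dpi 10 and 1 on dpi 42.

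The 10 peptide loading and trimming partners, among them chaperones of the endoplasmic reticulum and cytosolic peptidases, split. In OL 4, 0 and 0 were higher and 4, 6 and 6 lower, with a median of -0.03, -0.35 and -0.36. Over the alternatives 0 to 5 were higher and 2 to 5 lower on dpi 2, 2 to 6 lower on dpi 10 and 4 to 7 lower on dpi 42, with 1 higher on dpi 2 without OL naive library 3, 0 without dpi 2 pool 3 and 2 lower on dpi 10 without OL naive library 1. The cytosolic aminopeptidase Npepps fell in OL (-0.60 ± 0.08, -0.41 ± 0.08 and -0.34 ± 0.08) and in total RNA (-0.44, -0.53 and -0.29). Lap3, a leucine aminopeptidase, fell in OL on dpi 2 (-0.77 ± 0.14) and dpi 42 (-0.37 ± 0.14). Uggt1, which checks the folding of glycoproteins, fell in OL at each time (-0.52, -0.47 and -0.77), and the chaperone Calr rose on dpi 2 (0.52 ± 0.15) and fell on dpi 10 (-0.45 ± 0.15).

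Of 17 other class I and class I-like heavy chains, 15 were tested, and 5, 5 and 7 were higher and 1, 0 and 1 lower in OL, against 4, 8 and 5 higher and 0 lower in total RNA. In the absence of OL naive library 3, 8 were higher in OL at each time, and with only the groups compared 3 were. H2-T3 was under the count limit, and H2-T10 had no row of that symbol. H2-Q4 rose in OL by 2.98 ± 0.53, 3.66 ± 0.54 and 3.41 ± 0.54, Hfe, a class I-like regulator of iron uptake, by 1.90 ± 0.24, 1.11 ± 0.24 and 1.35 ± 0.24, and H2-T22 by 1.52 ± 0.22, 1.23 ± 0.22 and 1.31 ± 0.22. H2-T22 also had a differential OL enrichment of 1.20 ± 0.30 on dpi 2 (adjusted p = 0.00870) and 1.14 ± 0.30 on dpi 42 (adjusted p = 0.0209). Cd1d1, which presents lipids, was at no more than 0.210 CPM in naive OL and at 0.643 to 3.14 CPM on dpi 2. Reads of these chains may be shared between paralogs.

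Of 25 regulators of class I expression, 23 were tested, and in OL 5, 5 and 5 were higher and 6, 3 and 3 lower, against 12, 14 and 12 higher and 2, 3 and 1 lower in total RNA. In OL on dpi 2 these are shares near the 18.4% higher and 20% lower of all genes. The lower count of dpi 2 ranged from 2 (only the groups compared, or library sizes alone) to 10 (without OL dpi 42 library 1), that of dpi 10 from 1 to 3 and that of dpi 42 from 2 to 6. Irf1, a transcription factor downstream of interferon, rose in OL by 3.43 ± 0.34, 3.06 ± 0.33 and 3.12 ± 0.33, from 0.672 to 1.61 CPM in naive to 6.65 to 15.6 on dpi 2. Irf9 rose by 1.36 ± 0.24, 1.95 ± 0.25 and 1.02 ± 0.24, and Ifngr2, a chain of the interferon gamma receptor, by 1.38 ± 0.14, 1.21 ± 0.14 and 1.17 ± 0.14. Irf8, a factor best known from microglia and other myeloid cells, rose by 2.93 ± 0.41, 4.41 ± 0.40 and 3.41 ± 0.40 in OL, where it was at 3.21 to 6.31 CPM on dpi 2 against 34.3 to 43.8 CPM in total RNA. Ifng and Ifnb1 were below the limit of 10 summed counts and were not tested.

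Of 9 receptors of class I molecules or relatives of such receptors, 8 were tested (Lilrb3 had no row of that symbol). In OL 3 were higher at each time, which were Lilr4b, Lilrb4a and Pirb, inhibitory and related receptors of myeloid cells. Whether each of them binds class I molecules was not examined. With only the groups compared, 1 was higher on dpi 2 and 1 on dpi 42. In OL Pirb lay at 0.486 to 1.42 CPM on dpi 2 and Lilr4b at 1.5 to 5.16 CPM, against 6.29 to 11 and 12.8 to 22 CPM in total RNA. Cd8a, the T cell coreceptor, had no count in any OL library and at most 1.42 CPM in total RNA.

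The members moved together to different degrees. Over the 12 OL libraries, which share the condition as a source of variation, Pearson r between member pairs had a median of 0.818 and a lowest value of -0.198, and over the 12 total RNA libraries 0.940 and 0.786. Against the mean of all 9, Erap1 had r = 0.162 in OL and 0.891 in total RNA, while the other 8 had at least 0.850 in OL. The genes most like that mean in OL were Mov10 (r = 0.983), Gbp3 (0.969), Nectin2 (0.965), Serpinh1 (0.960) and Lama5 (0.959), and in total RNA Irgm2 (0.994), Cd48 (0.993), Icam1 (0.993), Igsf6 (0.992) and Dhrs3 (0.992). These are descriptions over 12 libraries each, with no test.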

How the data were processed

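Per the labels and the study's methods, the authors aligned reads to the mouse genome (mm10, GRCm38.p6) and counted them per gene with HTSeq 0.10.0 after quality control with FastQC 0.10.1, and the deposited table holds these raw counts for 24 libraries. Whether strand was used in counting is not given in the sources used here. Counts of all 17167 genes with a sum of at least 10 were fitted with edgeR 4.0.16 (R 4.3.3, TMM scaling, quasi-likelihood test, 8 group means), and p-values were adjusted by Benjamini-Hochberg over all tested genes; a call is an adjusted p under 0.05. The SE of a log2 fold change comes from that fit. CPM are TMM-scaled, and per kilobase they are divided by summed exon length. DESeq2 1.42.0, other scalings and filters, fits of only the groups compared, and fits without single libraries or pools were alternatives. The fit was tested on simulated data with known changes.

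The 12 pools each gave an OL and a total RNA library from 1 lysate, which pairs them. The correlation of deviations within a pool was 0.137 at most (lowest -0.0109). Replicates are separate pools of 2 mice. No pair of replicates agreed within counting noise (median chi-square per gene at least 2.51), and each library was counted separately. The 9 genes and all lists were chosen with earlier results of these data known. Beside the members, the genes named are, from each pathway list, all where 5 or fewer were tested and otherwise up to 4 with the smallest unadjusted p for the OL change on dpi 2, marker genes with at most 3 counts in every library of a group, and the 5 genes most like the members. Further genes named as not tested were chosen after their values were seen. Promoter sequences are from RefSeq.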

Additional observations from a re-analysis of the deposited data

Results flagged for a closer look

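The following values were singled out because an effect differed between conditions, by the test of that difference itself. The difference between OL and total RNA was changed relative to naive cord for Erap1 on dpi 2 (-0.93), dpi 10 (-0.95) and dpi 42 (-1.01), for Tapbp on dpi 10 (-0.81) and dpi 42 (-0.82), and for H2-K1 on dpi 10 (-1.53), all on the log2 scale. The Erap1 calls were lost in 8, 21 and 10 of 44 alternative fits. Between times after SCI, B2m (0.67) and H2-D1 (0.65) were higher in OL on dpi 10 than on dpi 2, and the B2m call was lost in 8 of 44 alternatives. In total RNA, B2m (1.26), H2-K1 (1.02), H2-D1 (1.13) and Tapbp (0.72) were higher on dpi 10 than on dpi 2, and B2m (0.90), H2-D1 (0.69) and Tapbp (0.51) on dpi 42 than on dpi 2.

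Of the named genes on the pathway lists, the OL enrichment of Lap3 fell relative to naive on dpi 2 (-0.98) and that of Calr on dpi 10 (-0.86). It rose for H2-T22 on dpi 2 (1.20 ± 0.30) and dpi 42 (1.14 ± 0.30), for Ifngr2 on dpi 2 (1.01 ± 0.19) and dpi 42 (0.70 ± 0.19) and for Irf1 on dpi 2 (1.40 ± 0.43). The adjusted p of the edgeR quasi-likelihood test was 0.00870 and 0.0209 for H2-T22, 0.00128 and 0.0284 for Ifngr2 and 0.0343 for Irf1. These values are from all 24 libraries, and fits without the libraries in doubt are not given for them here. No explanation of these values was tested.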

How the results depend on the processing

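The OL and total RNA changes of the members kept their direction in every called value, and 28 of their OL values lost and 16 gained the call over all alternatives. The number of members lower in OL on dpi 42 than in naive went from 0 to 1 with a total RNA library as TMM reference. OL enrichment depended most on the setting. In naive cord the members higher in OL numbered 2, and 1 with DESeq2 size factors, the DESeq2 test, only the groups compared or the pool block, and 0 with library sizes alone; those lower numbered 3, and 1 with only the groups compared and 5 with the pool block. On dpi 2 the 1 lower member became 2 with DESeq2 size factors, the total RNA reference, the DESeq2 test or the pool block, and 6 with library sizes alone; the 5 lower on dpi 10 became 8 with library sizes alone or only the groups compared, and the 5 on dpi 42 became 8 with library sizes alone. Library sizes alone moved the median OL enrichment of all genes by -0.51, -0.57, -0.57 and -0.50 and turned Tapbp in naive (-0.058) and on dpi 2 (-0.50) and Erap1 in naive (-0.012). The total RNA reference moved the median differential OL enrichment by -0.23, -0.23 and -0.22.

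For differential OL enrichment, the 1 lower member on dpi 2 became 2 with the total RNA reference and 0 with only the groups compared, and the 2 on dpi 42 became 1 with only the groups compared. For OL between times, 2 higher on dpi 10 than dpi 2 became 1 with library sizes alone, and the DESeq2 test called 1 lower on dpi 42 than dpi 10 and 1 higher on dpi 42 than dpi 2, against 0 and 0. With only the groups compared, 7 in place of 4 were higher in total RNA on dpi 10 than dpi 2, and 5 in place of 0 lower on dpi 42 than dpi 10. The cause was not tested.

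Leaving out 1 library or pool, the members higher in OL numbered 6 to 8 at each time and those lower on dpi 42 0 to 1; higher in total RNA 8 to 9, 8 to 9 and 6 to 9. OL enrichment in naive had 1 to 3 higher and 1 to 5 lower, and 0 to 3, 3 to 8 and 2 to 7 were lower on dpi 2, 10 and 42. Differential OL enrichment had 0 to 2 higher and 0 to 2 lower on dpi 2, 2 to 3 lower on dpi 10, and 0 to 1 higher and 1 to 3 lower on dpi 42. Between times the ranges were 1 to 3, 0 to 2 (lower on dpi 42 than dpi 10), 0 to 2 and 0 to 1 in OL, and 4 to 4, 0 to 0 and 3 to 4 in total RNA; the two-arm filter passed 0 to 2, 0 to 0 and 0 to 1. The differential OL enrichment of Psmb9 on dpi 2, main value -0.16, ranged from -0.93 (without OL naive library 2) to 5.99 (without OL naive library 3), with 5.74 without naive pool 3. That of Psmb8 ranged from -0.95 to 1.72 on dpi 10 and from -0.80 to 1.91 on dpi 42, with 1.62 and 1.77 without OL naive library 3; the values with all libraries were -0.37 and -0.18 and did not pass. Psmb9 had no count in some naive OL libraries, so its fitted value is no bound. List counts under the alternatives were added after the data were seen.

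The pool block called the differential OL enrichment of the same members. Blocking by replicate number, which names no shared material across conditions, lost Tap2 in OL on dpi 42 (1.30) and called Erap1 in total RNA on dpi 42 (0.55). Low counts limit Tap1, H2-T23 and Nlrc5 in naive OL, with as few as 12, 17 and 29 counts, and intervals cover only the spread between pools.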
